A study of Mus musculus with 3 samples.

Results

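Granulocyte-monocyte progenitors (GMP) are the bone marrow cells from which neutrophils and monocytes are made. They still carry the progenitor surface protein Cd34 and already transcribe the genes of the neutrophil primary granule, of which Mpo, encoding myeloperoxidase, is the best known. Their output passes through promyelocytes, which lose Cd34 and load granules with serine proteases, or through monocyte progenitors, which depend on the transcription factor Irf8 and turn on F13a1. Interferons and inflammatory cytokines act directly on these progenitors and change which genes they transcribe.

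The GMP described here were chosen by 3 genes in the raw data. A cell was taken when it held at least 10 Mpo UMIs (unique molecular identifiers, each a captured RNA molecule), at least 2 Cd34 UMIs and no F13a1 UMI, had at least 200 genes and had at most 5% of its UMIs from mitochondrial genes. This rule selected 1450 of the 31292 cells that passed the same filters on genes and mitochondrial UMIs. Mpo, Cd34 and F13a1 are therefore given as a description of the choice only.

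The study asked how cannabidiol (CBD), a non-psychoactive cannabis compound, affects the recovery of bone marrow after acute irradiation. Bone marrow nucleated cells (BMNC) of 3 mice were pooled into 1 droplet library for each of 3 groups, all prepared on day 14. Control mice were wild type and not irradiated. IR mice received 6 Gy of gamma radiation and the solvent, and IR+CBD mice received 6 Gy and 4 intraperitoneal injections of CBD at 50 mg/kg around the time of irradiation. According to the methods, the study used male C57BL/6 mice, and lineage-negative Kit-positive, lineage-negative Kit-negative and lineage-positive cells were separated and combined at a ratio of 5:4:1. A share of cells thus refers to this mix and not to the marrow of a mouse.

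The Control library gave 595 GMP, the IR library 423 and the IR+CBD library 432. Median depth per GMP was 27823, 30683 and 25452 UMIs in the same order, and the median number of genes was 5828, 5945 and 5498. In total the GMP held 17881740 UMIs in Control, against 13937137 in IR and 11690762 in IR+CBD. No GMP barcode occurred in more than 1 library, while the pairs of libraries shared 26 to 34 barcodes among all filtered cells. Scrublet, which scores cells by their likeness to simulated doublets, marked 13.4% of Control GMP, 13.9% of IR GMP and 11.6% of IR+CBD GMP, against 8.22% to 8.53% of all filtered cells. With 1 library per group there is no replicate check. Treatment, mice, sort and library preparation cannot be told apart, no test between groups was made, and every interval below is an exact 95% interval that covers counting error only.

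The cells carried the markers of their name. Ctsg, encoding the granule protease cathepsin G, was found in 584 of 595 Control GMP, 422 of 423 IR GMP and 428 of 432 IR+CBD GMP. Ms4a3, a membrane protein gene typical of GMP, was found in 469, 396 and 398 cells. Free RNA in droplets also gives such UMIs, so the same genes were read in erythroid cells (at least 5 UMIs each of Klf1 and Car1), which should lack them. After every cell was thinned to 10000 UMIs, which left out 5, 1 and 8 GMP, Ctsg was detected in 95.4% of GMP from Control, 99.5% from IR and 99.3% from IR+CBD, against 27.7%, 19.6% and 19.4% of erythroid cells. Ms4a3 was detected in 68.1%, 88.9% and 86.3% of thinned GMP against 14.7%, 11.3% and 13% of erythroid cells. The median depth of the erythroid cells before thinning was 43893, 46658 and 42791 UMIs. Not every cell was a clean GMP: 99 Control (16.6%), 87 IR (20.6%) and 67 IR+CBD GMP (15.5%) also held a high number of UMIs of globin, basophil, B cell, late neutrophil or other lineage genes, and results are given without these cells where they matter.

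The thresholds cut through a continuum. Just inside the Mpo limit, the 55 Control, 21 IR and 23 IR+CBD cells with 10 to 12 Mpo UMIs held 341, 808 and 732 CPM of Ctsg, where CPM is a gene's UMIs per 1000000 UMIs of all genes. Just outside it, the 81, 41 and 30 cells with 7 to 9 Mpo UMIs held 178, 581 and 621 CPM of Ctsg. At the Cd34 limit, cells with 2 Cd34 UMIs had 3459 to 4761 CPM of Elane and those with 1 had 4446 to 5330 CPM. Cells that met the other conditions but held 1 F13a1 UMI numbered 187, 129 and 150, and their Csf1r level was 13.8, 8.76 and 8.14 CPM against 7.89, 5.67 and 4.11 CPM in the GMP.

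GMP made up a smaller share of both irradiated libraries. Of the filtered cells they were 5.57% (5.15 to 6.03) in Control, with 4.09% (3.72 to 4.49) in IR and 4.21% (3.83 to 4.61) in IR+CBD. The ratio of the IR to the Control share was 0.734, and that of IR+CBD to IR was 1.03. The lower share lay in the cells with little Mpo. Cells with 10 to 19 Mpo UMIs numbered 150 in Control, with 51 in IR and 57 in IR+CBD, and the ratio of the IR to the Control share was 0.351 (0.250 to 0.485). Cells with 20 to 49 Mpo UMIs numbered 150, 74 and 104, with a ratio of 0.509 (0.380 to 0.677). In the bands above, the groups were close: 88, 82 and 81 cells held 50 to 99 Mpo UMIs, with a ratio of 0.962 (0.703 to 1.31), and 207, 216 and 190 cells held 100 or more, with a ratio of 1.08 (0.886 to 1.31).

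**Figure D1:**
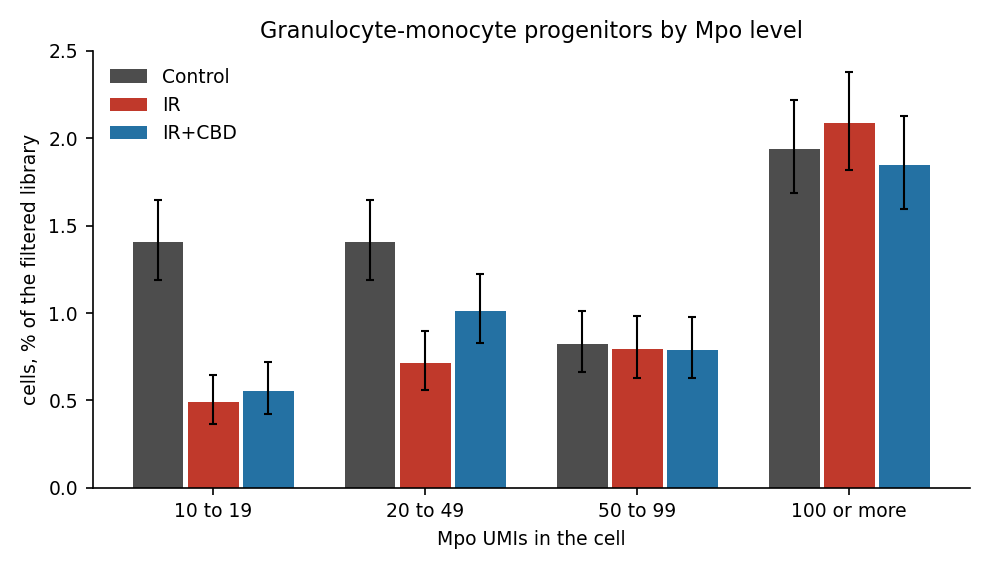
Share of GMP in each filtered library (percent of cells, vertical axis) by the number of Mpo UMIs in the cell (horizontal axis) in Control, IR and IR+CBD; bars are the shares of 1 library each and lines are exact 95% binomial intervals for counting error. Cells with 10 to 19 Mpo UMIs made up 1.41% of cells from Control, 0.493% from IR and 0.555% from IR+CBD, while those with 100 or more made up 1.94%, 2.09% and 1.85%.

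Between IR+CBD and IR, the difference lay in the band of 20 to 49 Mpo UMIs, where the ratio of IR+CBD to IR was 1.42 (1.04 to 1.93), and at 10 to 19 it was 1.12 (0.758 to 1.68). Median depth at 20 to 49 Mpo UMIs was 25900 UMIs in IR and 23414 in IR+CBD. Over all GMP with fewer than 50 Mpo UMIs, 300 Control, 125 IR and 161 IR+CBD cells were counted. Their share was 2.81%, 1.21% and 1.57% of the filtered cells, and the ratio of IR+CBD to IR was 1.30 (1.02 to 1.65). GMP with 50 or more Mpo UMIs numbered 295, 298 and 271, or 2.76%, 2.88% and 2.64%, with an IR+CBD to IR ratio of 0.916 (0.774 to 1.08). As a share of all cells with at least 2 Cd34 UMIs, the GMP did not stand lower after irradiation, at 21.1%, 21.4% and 23%.

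The populations next to the GMP in the same libraries showed other patterns. Cells with at least 10 Mpo UMIs and any F13a1, the monocyte-directed neighbours, made up 18.1% of cells from Control, 19.4% from IR and 20.7% from IR+CBD. Cells with at least 10 Mpo UMIs and neither Cd34 nor F13a1, on the promyelocyte side, made up 2.32%, 2.27% and 4.35%. Cells with at least 2 Cd34 UMIs but at most 1 Mpo UMI and no F13a1, on the stem cell side, made up 3.55%, 1.39% and 1.37%. The stem cell side was thus lower in both irradiated libraries, with a ratio of IR to Control of 0.392 (0.321 to 0.476), and the promyelocyte side was higher in IR+CBD than in IR, with a ratio of 1.92 (1.63 to 2.25). The median depth of the promyelocyte-side cells was lower, at 16694 UMIs in IR+CBD and 20927 in IR. These cells also held RNA of basophils and later neutrophils. Prss34, a basophil gene, stood at 1737, 916 and 558 CPM in them, and S100a8, a later neutrophil gene, at 22261, 16204 and 14164 CPM. The stem cell side also held RNA of other lineages, so its name describes the choice of cells only. Dntt, a gene of lymphoid-primed progenitors, stood there at 555, 549 and 372 CPM, and Hlf, a stem cell gene, at 202, 119 and 144 CPM. S100a8 stood there at 3999, 108 and 1079 CPM, highest in Control. Which of its cells made up the lower share after irradiation was not tested.

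Within the GMP, Mpo ordered the cells by other genes as well, although the same cells chose both, so the order is a description. In Control GMP, Ctsg ran from 427 CPM in cells with 10 to 19 Mpo UMIs to 3824 CPM in cells with 100 or more. Elane, the neutrophil elastase gene, ran from 62.9 to 3301 CPM, and Cebpe, the transcription factor that drives later granule genes, from 16.7 to 113 CPM. Genes of earlier progenitors ran the other way: Flt3, a cytokine receptor of multipotent and lymphoid-primed progenitors, from 123 to 7.53 CPM, Hlf, a stem cell transcription factor, from 96.0 to 19.6 CPM, and Dntt, encoding the terminal transferase of lymphoid-primed progenitors, from 151 to 0.864 CPM. Irf8 ran from 81.4 to 39.2 CPM. Depth also rose along this order, from a median of 20540 to 36878 UMIs in Control.

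**Figure D2:**
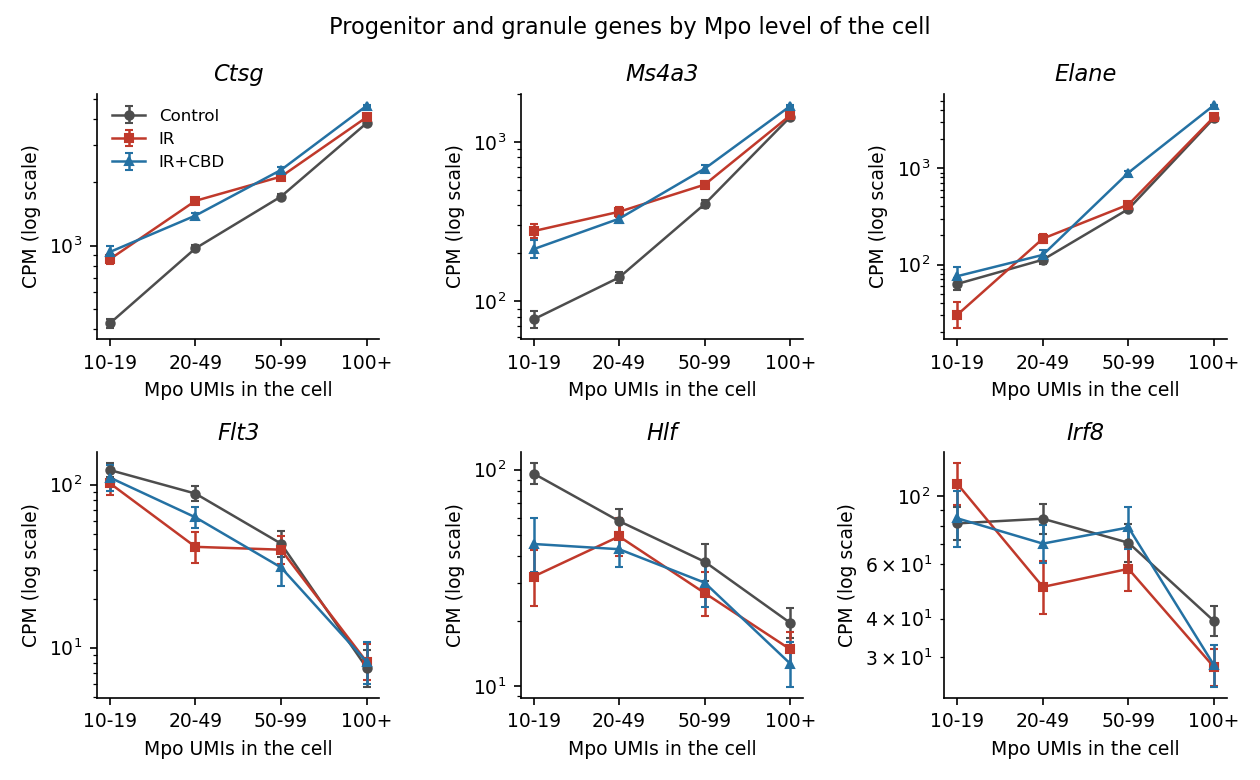
CPM of 6 genes (vertical axes, log scale) summed over the GMP in 4 bands of Mpo UMIs per cell (horizontal axes) in Control, IR and IR+CBD; points are 1 library each and lines are exact 95% Poisson intervals for counting error. Ctsg, Ms4a3 and Elane climb with Mpo and Flt3 falls, and Ms4a3 in the 10 to 19 band is 77.2 CPM in Control, against 276 in IR and 213 in IR+CBD.

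Elane and Ms4a3 were found at higher numbers per cell in both irradiated libraries. The median GMP held 6 Ms4a3 UMIs in Control, against 27 in IR and 20 in IR+CBD. Its Mpo UMIs, 48, 104 and 82.5, describe the choice of cells. After thinning to 10000 UMIs, 38.0% (34.0 to 42.0) of Control, 53.3% (48.4 to 58.2) of IR and 51.9% (47.0 to 56.7) of IR+CBD GMP held at least 5 Elane UMIs. At least 3 Ms4a3 UMIs were held by 46.8%, 76.5% and 74.3% of them. The opposite class, with Flt3 but without 3 Ms4a3 UMIs, made up 25.9% (22.4 to 29.7) of Control, 11.1% (8.30 to 14.5) of IR and 13.9% (10.8 to 17.6) of IR+CBD GMP. Cells with at least 2 Irf8 UMIs were 14.7%, 11.1% and 11.8%, and cells with both Elane and Irf8 at these levels were 3.56%, 3.08% and 4.01%. Of erythroid cells, 2.37%, 0.807% and 0.920% held a Flt3 UMI after thinning, against 29.7%, 17.1% and 19.8% of GMP.

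Summed over all GMP, Ctsg stood at 2277 CPM (2255 to 2299) in Control, 2999 (2970 to 3028) in IR and 3099 (3067 to 3131) in IR+CBD. Elane stood at 1589, 1988 and 2408 CPM, and Prtn3, the proteinase 3 gene beside Elane on chromosome 10, at 3332, 3786 and 4159 CPM. All 3 were higher in IR than in Control by less than 1.5-fold. The list of primary granule and secretory genes held 15 measured genes, of which 0 were past 1.5-fold in IR against Control, with a median log2 ratio of 0.22 against -0.01 over all 10941 genes measured. Gene counts here use genes with at least 100 UMIs over the 2 libraries compared, without the 3 genes of the rule, and "past 1.5-fold" means a CPM ratio of at least 1.5 or its inverse. Over all genes, 236 were higher in IR by that measure (2.16%) and 373 lower (3.41%), so 38.8% of them were higher, or 50.6% when the rule was applied after thinning and 55.7% among GMP with 50 or more Mpo UMIs. Between IR+CBD and IR, 10416 genes were measured, of which 73 were higher in IR+CBD (0.701%) and 171 lower (1.64%), and 0 granule genes were past 1.5-fold. Against Control, IR+CBD had 127 higher genes (1.18%) and 313 lower genes (2.91%) of 10756, and Elane, at a ratio of 1.52 (1.49 to 1.54), was the 1 granule gene among them.

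The difference in these genes depended on the Mpo level of the cell. Among GMP with 10 to 49 Mpo UMIs, Ctsg was 716 CPM in Control, against 1314 in IR and 1255 in IR+CBD, and Ms4a3 was 111, 328 and 296 CPM. Cebpa, the transcription factor that GMP formation requires, was 43.8, 67.0 and 66.4 CPM there. Among GMP with 50 or more Mpo UMIs, Ctsg was 3290, 3572 and 3995 CPM, Ms4a3 was 1177, 1228 and 1411 CPM, and Cebpa 75.6, 81.8 and 70.3 CPM. Elane was 2562, 2622 and 3525 CPM in the high band, with a ratio of IR+CBD to IR of 1.34 (1.32 to 1.37). At high Mpo the ratio of IR to Control thus ran from 1.02 for Elane to 1.09 for Ctsg over these 4 genes, and IR+CBD had the highest Ctsg, Ms4a3 and Elane, while at low Mpo both irradiated libraries had higher Ctsg, Ms4a3 and Cebpa than Control. Other genes differed at low Mpo as well. Gata2 was 87.8, 131 and 125 CPM there and Cpa3 311, 456 and 420 CPM, while the basophil gene Prss34 was lower after irradiation, at 438, 367 and 148 CPM. Median depth in the low band was 21592, 26068 and 21969 UMIs. The bands are cut on a gene of the rule, and Mpo itself was higher in IR+CBD than in IR within them, by 1.22-fold in the low band and 1.14-fold in the high band.

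The promoters of 2 granule genes are shown because Elane and Prtn3 lie side by side and were read at high level in every library. They cover the 150 bases before the annotated start in RefSeq on GRCm38.p6, with the motif GAGGAA, a purine-rich core bound by factors such as PU.1, in capitals.
Elane, chr10:79886162-79886311, plus strand: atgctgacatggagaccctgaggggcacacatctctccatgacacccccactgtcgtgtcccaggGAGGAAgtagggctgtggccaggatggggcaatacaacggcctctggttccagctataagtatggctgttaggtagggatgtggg
Prtn3, chr10:79879517-79879666, plus strand: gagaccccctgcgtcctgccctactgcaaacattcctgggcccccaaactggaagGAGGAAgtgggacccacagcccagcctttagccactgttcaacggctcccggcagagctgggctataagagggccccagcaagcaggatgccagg
GAGGAA was searched on both strands. It starts 85 bases before the start of Elane and 95 bases before that of Prtn3. It occurred in 6 of 12 granule genes with an entry and in 14.5% of all 32851 promoters of this length. It also occurred in 11 of 38 interferon list genes, 1 of 18 MHC class I genes and 4 of 28 immediate early genes. A list gene counted if any of its promoters matched, while the share over all counts promoters. Spi1, which encodes PU.1, was 195, 184 and 189 CPM in the GMP.

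Some genes of stem and multipotent progenitors were lower in IR GMP. Of 20 measured, 1 was higher and 5 lower than Control by 1.5-fold in IR, where 2.16% of all genes were higher and 3.41% lower, with a median log2 ratio of -0.16. In IR+CBD 1 of 20, Hlf, was lower than Control and 0 were higher, with a median of -0.10. Among GMP with 50 or more Mpo UMIs, 2 were higher and 2 lower in IR than in Control, with a median of 0.02. Hlf stood at 44.5 CPM (41.4 to 47.7) in Control, 24.1 (21.6 to 26.8) in IR and 26.0 (23.2 to 29.1) in IR+CBD. Flt3 stood at 51.1, 29.1 and 34.8 CPM, and Satb1, a chromatin organizer active in lymphoid-primed progenitors, at 71.1, 40.5 and 48.8 CPM. Control was the highest library for all 3 genes and IR the lowest. The adhesion receptor gene Adgrl4, with a ratio of IR to Control of 0.653, was also among the lower genes. The higher gene was Ly6a, which encodes Sca-1 and also responds to interferon, at 8.67, 25.5 and 6.59 CPM. Within GMP of 10 to 49 Mpo UMIs, Flt3 was 104, 66.5 and 76.9 CPM and Hlf 75.7, 42.1 and 43.7 CPM. Within GMP of 50 or more, Flt3 was 16.6, 16.4 and 14.4 CPM and Satb1 46.7, 29.1 and 37.5 CPM, so Flt3 was level between libraries in the high band while Satb1 was not.

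Receptors and transcription factors of the myeloid program mostly kept their level. Kit, the stem cell factor receptor, was 98.7, 92.0 and 96.1 CPM, Csf3r, the G-CSF receptor, 47.7, 41.8 and 47.3 CPM, and Cd48 207, 223 and 204 CPM. Of 21 measured receptors, Epor was higher and Flt3 and Il1r1 lower in IR than in Control. Il1r1, the interleukin 1 receptor, stood at 14.8 CPM (13 to 16.7) in Control, 7.96 (6.55 to 9.59) in IR and 8.90 (7.27 to 10.8) in IR+CBD, but in the high Mpo band the ratio of IR to Control was 1.10. Csf1r, the M-CSF receptor, was 7.89, 5.67 and 4.11 CPM. Of 23 transcription factors, Id1 was higher and Klf2 and Klf4 lower in IR than in Control. Among all genes measured, 2.16% were higher and 3.41% lower in that comparison. Cebpe was 61.0, 86.0 and 82.5 CPM, and Gfi1, a repressor needed for neutrophil formation, 27.8, 34.1 and 39.6 CPM, all below 1.5-fold.

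Genes induced by interferon were higher in IR GMP and near the Control level in IR+CBD GMP. Of 43 measured members of the interferon response list, 30 were higher and 1 lower in IR than in Control by 1.5-fold, with a median log2 ratio of 0.93 against -0.01 over all genes. Between IR+CBD and IR, 0 were higher and 28 lower of 41, with a median of -0.81 against -0.01. Against Control, IR+CBD had 1 higher and 2 lower of 36, with a median of 0.06 against -0.03. IR is the common library of the first 2 comparisons, so a value that is high in IR alone enters both.

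The promoters of 3 genes of this list are shown because they are textbook interferon targets that followed this pattern. They cover the same 150 bases before the start, and capitals mark GAAA repeated after any 2 bases, the repeat at the core of the interferon-stimulated response element, or its reverse complement.
Isg15, chr4:156200819-156200968, minus strand: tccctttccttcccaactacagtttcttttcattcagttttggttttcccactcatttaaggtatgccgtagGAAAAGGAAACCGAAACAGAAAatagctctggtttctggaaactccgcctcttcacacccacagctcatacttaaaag
Ifit1, chr19:34640739-34640888, plus strand: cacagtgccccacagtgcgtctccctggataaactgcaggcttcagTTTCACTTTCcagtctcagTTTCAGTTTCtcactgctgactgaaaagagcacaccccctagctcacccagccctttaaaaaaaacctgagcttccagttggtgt
Rsad2, chr12:26456453-26456602, minus strand: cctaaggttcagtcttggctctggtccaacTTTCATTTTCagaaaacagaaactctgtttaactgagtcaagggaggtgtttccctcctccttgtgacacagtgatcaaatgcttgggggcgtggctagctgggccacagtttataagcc
The motif was searched on both strands with overlaps counted, and Isg15 holds 3 overlapping copies that start 78, 72 and 66 bases before its start. It occurred in 17 of the 38 interferon list genes with an entry (44.7%), in 2 of 18 MHC class I genes (11.1%), in 0 of 12 granule genes and 0 of 28 immediate early genes, and in 1.59% of all 32851 promoters. List genes were again counted by gene and the share over all by promoter. A match is a match of letters in this window and not evidence that a factor binds there.

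Isg15, which encodes a ubiquitin-like protein attached to other proteins during the antiviral response, stood at 11.0 CPM (9.48 to 12.6) in Control, 34.8 (31.8 to 38.0) in IR and 10.6 (8.82 to 12.6) in IR+CBD. The ratio of IR to Control was 3.18 (2.68 to 3.77) and that of IR+CBD to IR 0.305 (0.248 to 0.372). Irf7, the transcription factor that amplifies interferon production, stood at 3.91, 15 and 2.99 CPM. For Isg15 and Irf7 alike, the intervals of Control and IR+CBD overlapped and that of IR lay above them. Ifi27l2a, an interferon-induced gene, gave the highest ratio of the list, with 10.2 CPM (8.75 to 11.8) in Control, 76.1 (71.5 to 80.8) in IR and 10.7 (8.90 to 12.7) in IR+CBD, a ratio of IR to Control of 7.47 (6.38 to 8.79). Rtp4, an interferon-induced chaperone of receptors, stood at 5.87, 36.8 and 7.78 CPM.

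Members of the family of oligoadenylate synthetases, which sense viral double-stranded RNA, followed the same order. Oasl2 stood at 4.98 CPM in Control, with 20.4 in IR and 6.07 in IR+CBD, and Oas2 at 1.34, 6.74 and 1.11 CPM. Usp18, the protease that removes Isg15, stood at 3.41, 11.2 and 2.57 CPM. Ifit1 rested on few cells, with 30 UMIs in 9 Control GMP, 21 of them in 1 cell, 70 UMIs in 48 IR GMP and 24 UMIs in 11 IR+CBD GMP. Irf9, a transcription factor through which interferon receptors signal, stood at 11.4, 25.9 and 12.1 CPM. Bst2, which tethers virus particles and is also a plasmacytoid dendritic cell marker, stood at 154, 277 and 167 CPM.

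Ifitm1, a membrane protein gene that limits virus entry and is abundant in early progenitors, went against the list. It stood at 1348 CPM (1331 to 1365) in Control, 691 (677 to 705) in IR and 716 (701 to 732) in IR+CBD, the 1 member lower in IR than in Control. Ifitm3 stood at 519, 592 and 351 CPM. With both genes included, the summed UMIs of the list per thinned cell had a median of 31 in Control, against 34 in IR and 23 in IR+CBD. Without Ifitm1 and Ifitm3 the medians were 14, 22 and 14. Then 44.1% of Control, 87.2% (83.6 to 90.2) of IR and 46.0% (41.2 to 50.9) of IR+CBD GMP lay above the Control median. For the list without these genes, the difference was thus spread over most IR cells. With both genes included, 49.2%, 57.6% and 26.4% of GMP lay above the Control median of the full list.

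**Figure D3:**
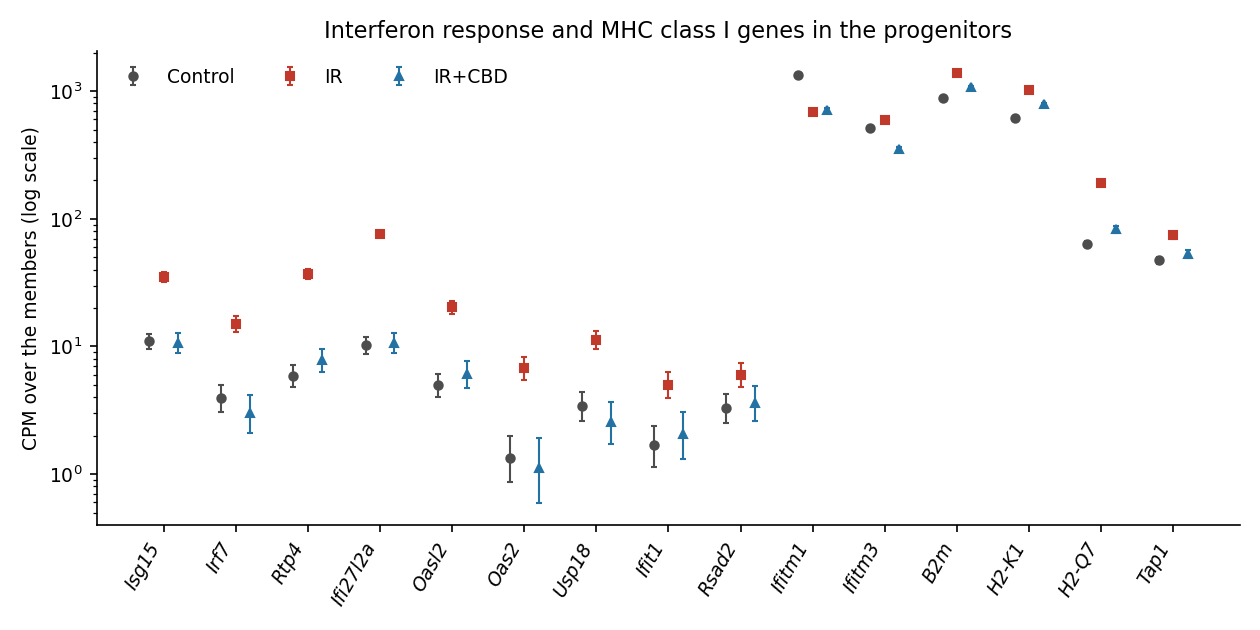
CPM (vertical axis, log scale) of 11 interferon response genes and 4 genes of antigen presentation summed over the GMP of Control, IR and IR+CBD; points are 1 library each and lines are exact 95% Poisson intervals for counting error. IR lies above both other libraries for each gene shown except Ifitm1, where Control is highest at 1348 CPM.

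The interferon difference was present at both ends of the Mpo range. Among GMP with 10 to 49 Mpo UMIs, 26 of 33 measured genes were higher and 1 lower in IR than in Control, with a median log2 ratio of 0.73, where 2.57% of 8667 genes were higher and 3.76% lower. Among those with 50 or more, 27 of 36 were higher and 1 lower, with a median of 0.93, where 2.16% of 9920 genes were higher and 1.71% lower. From IR to IR+CBD, 17 of 27 were lower at low Mpo, where 1.10% of 7648 genes were higher and 1.53% lower. At high Mpo 24 of 35 were lower, where 0.596% of 9568 genes were higher and 1.87% lower. Isg15 at low Mpo was 12.4, 39.0 and 11.2 CPM, and at high Mpo 10.1, 33.4 and 10.3 CPM. Ifi27l2a was higher at low Mpo, with 16.1, 140 and 19.9 CPM against 6.36, 54.4 and 6.23 CPM at high Mpo.

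The same pattern was not particular to GMP. The median log2 ratio of the list for IR over Control was 1.48 in the F13a1-positive neighbours, 1.04 on the promyelocyte side and 0.90 on the stem cell side, and for IR+CBD over IR it was -1.15, -0.99 and -0.78. In erythroid cells Isg15 stood at 17.1, 101 and 34.4 CPM and Irf7 at 6.35, 40.9 and 10.2 CPM, above the GMP of the same library in all 3. After thinning, Isg15 was detected in 10.3%, 24.6% and 8.73% of GMP and in 13.3%, 50.3% and 21.0% of erythroid cells, so the Isg15 share in GMP was not above this reference. Ifi27l2a in erythroid cells stood at 4.52, 32.2 and 5.13 CPM, below the GMP in each library. B-lineage cells (at least 5 Cd79a and 2 Cd79b UMIs) held 209, 1671 and 295 CPM of it, above the GMP in each library. The part of free RNA in the GMP values was not tested. Cells on the stem cell side held more of some of these genes than GMP did, with Ifi27l2a at 76.6, 240 and 30.7 CPM and Ly6a at 79.3, 227 and 69.4 CPM. Without the GMP that held RNA of other lineages, 26 of 40 interferon genes were higher and 1 lower in IR than in Control, and 25 of 37 lower in IR+CBD than in IR.

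MHC class I genes, which present peptides to CD8 T cells and are themselves interferon targets, were higher in IR than in Control. Of 20 measured, 11 were higher and 0 lower in IR than in Control by 1.5-fold, with a median log2 ratio of 0.61. Of 19, 3 were lower and 0 higher in IR+CBD than in IR, with a median of -0.35, and 0 were past 1.5-fold between IR+CBD and Control, with a median of 0.15. Among all genes measured, 2.16% were higher and 3.41% lower in IR than in Control. In IR+CBD against IR the shares were 0.701% and 1.64%. B2m, the invariant light chain, stood at 883 CPM (870 to 897) in Control, 1385 (1365 to 1404) in IR and 1085 (1067 to 1104) in IR+CBD. The heavy chain gene H2-K1 stood at 611, 1029 and 797 CPM, H2-D1 at 529, 917 and 686 CPM, and the peptide transporter gene Tap1 at 47.3, 74.3 and 53 CPM. For all 4 genes IR+CBD lay between Control and IR. The nonclassical gene H2-Q7 stood at 63.5, 192 and 83.1 CPM, although reads of the near-identical H2-Q genes can be split between copies in counting. Per thinned cell, the list summed to a median of 40 UMIs in Control, with 58 in IR and 46 in IR+CBD. In IR 94.3% of GMP (91.7 to 96.3) lay above the Control median, and in IR+CBD 68.6% (64.0 to 73.0) did.

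Immediate early genes, which cells transcribe within minutes of a stimulus and also during tissue dissociation, were lower in both irradiated libraries. Of 32 measured, 0 were higher and 16 lower in IR than in Control, with a median log2 ratio of -0.59. From IR to IR+CBD 1 was higher and 0 lower, with a median of 0.23, and against Control IR+CBD had 12 lower and 0 higher, with a median of -0.38. Among all genes measured, 2.16% were higher and 3.41% lower in IR than in Control. The shares were 0.701% and 1.64% in IR+CBD against IR, and 1.18% and 2.91% in IR+CBD against Control. Egr1, a zinc finger transcription factor, stood at 301 CPM (293 to 309) in Control, 129 (123 to 135) in IR and 168 (161 to 176) in IR+CBD. Fos, a subunit of AP-1, stood at 313, 159 and 189 CPM, and Nr4a1, an orphan nuclear receptor, at 64.9, 17.9 and 25.9 CPM. For these genes Control lay highest and IR+CBD slightly above IR.

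**Figure D4:**
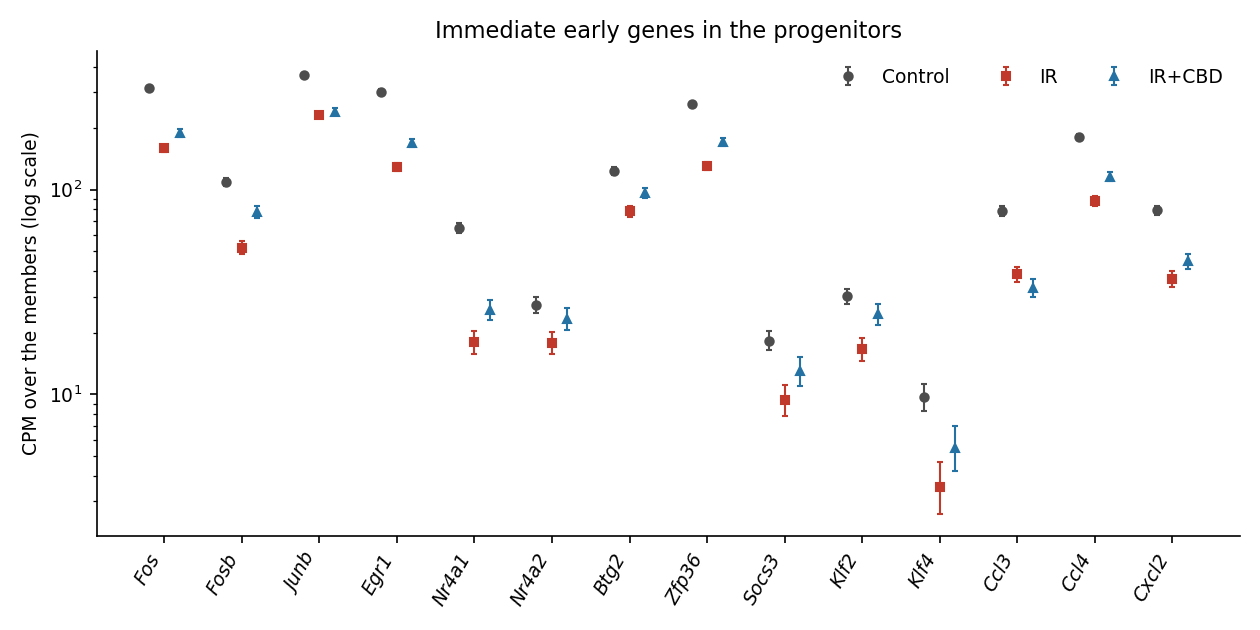
CPM (vertical axis, log scale) of 14 immediate early genes and chemokines summed over the GMP of Control, IR and IR+CBD; points are 1 library each and lines are exact 95% Poisson intervals for counting error. Control is highest for each of the 14 genes, with Nr4a1 at 64.9 CPM against 17.9 in IR and 25.9 in IR+CBD.

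The chemokine genes Ccl3 and Ccl4, which attract myeloid and lymphoid cells, belong to the same list. Ccl3 stood at 78.6, 38.7 and 32.9 CPM and Ccl4 at 180, 88.4 and 116 CPM. Klf4, a monocyte transcription factor, stood at 9.67, 3.52 and 5.47 CPM and was the 1 list member past 1.5-fold between IR+CBD and IR. Per thinned cell the list summed to a median of 53 UMIs in Control, against 29 in IR and 33 in IR+CBD. The genes were higher in cells with little Mpo, with Egr1 in Control at 534 CPM in the lowest band and 93.0 CPM in the highest. Within bands the difference was still present, since 15 of 32 were lower in IR than in Control among GMP with 10 to 49 Mpo UMIs and 10 of 31 among those with 50 or more. In these bands 3.76% and 1.71% of all genes were lower. Erythroid cells of the same libraries had Egr1 at 41.3, 23.6 and 17.3 CPM.

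Genes of damage and death responses were listed because radiation acts through them. Of 23 measured p53 targets, Pmaip1, which encodes the death promoter Noxa, was higher, and 4, Btg2, Cdkn1a, Ddb2 and Tnfrsf10b, were lower in IR than in Control, where 2.16% of all genes were higher and 3.41% lower. Pmaip1 stood at 14.0 CPM (12.3 to 15.8) in Control, 25.5 (23 to 28.3) in IR and 23.1 (20.4 to 26.0) in IR+CBD. Cdkn1a, the cell cycle inhibitor p21, stood at 111, 71.6 and 70.9 CPM, and Bax at 117, 142 and 135 CPM. Mdm2, the p53 ubiquitin ligase, was level at 44.0, 45.9 and 46.2 CPM. Of 38 DNA repair genes 0 were higher and 2 lower in IR than in Control, namely Xrcc2 and Xrcc5, and of 11 BCL2 family genes Pmaip1 was the 1 past 1.5-fold. From IR to IR+CBD, 0 genes of these 3 lists were past 1.5-fold.

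Summed over all GMP, proliferation genes did not differ by 1.5-fold. Of 43 S phase and 54 G2/M genes, 0 were past it in IR against Control or in IR+CBD against IR. The 150, 51 and 57 GMP with 10 to 19 Mpo UMIs differed from this: there 20 of 47 G2/M genes were higher and 0 lower in IR than in Control, where 4.28% of 6405 genes were higher and 4.22% lower. In IR+CBD against IR, 19 of 37 were lower and 0 higher there, where 1.82% of 4395 genes were higher and 3.05% lower. Both comparisons use the same 51 IR cells, and Mki67 in this band was 167, 161 and 125 CPM. In the band of 20 to 49, 1 of 48 was higher and 2 lower in IR than in Control, and 4 of 48 were higher and 0 lower in IR+CBD than in IR. At 50 to 99 and at 100 or more Mpo UMIs, 0 of 49 and 0 of 53 G2/M genes were past 1.5-fold in IR against Control. S phase genes leaned lower in IR+CBD than in IR, with 42 of 43 below a ratio of 1 and a median log2 ratio of -0.13 against -0.01 over all genes. The proliferation marker Mki67 stood at 164 CPM (158 to 170) in Control, 130 (124 to 136) in IR and 138 (132 to 145) in IR+CBD, and at least 1 Mki67 UMI was found in 55.9%, 50.7% and 54.7% of thinned GMP. Of 74 nuclear genes of oxidative phosphorylation, 0 were past 1.5-fold in each of the 2 comparisons, with median log2 ratios of 0.10 and -0.002. Antioxidant and homing genes also had 0 past 1.5-fold in each. Of 20 glycolysis genes, Hk3 was higher and Ldhb and Slc2a1 lower in IR than in Control, with Hk3, a hexokinase of myeloid cells, at 55.4, 87.2 and 76.1 CPM and Ldhb at 23.3, 10.4 and 14.1 CPM. In that comparison 2.16% of all genes were higher and 3.41% lower.

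Atf2, the transcription factor the study examines, and Lrp6, a Wnt coreceptor, did not differ by 1.5-fold in GMP. Atf2 stood at 65.7 CPM (61.9 to 69.5) in Control, 67.7 (63.4 to 72.1) in IR and 68.9 (64.3 to 73.9) in IR+CBD. Lrp6 stood at 35.6 (32.9 to 38.4), 31.1 (28.2 to 34.1) and 31.1 (28.0 to 34.5) CPM, with a ratio of IR to Control of 0.874 (0.771 to 0.989) and of IR+CBD to IR of 1.00 (0.869 to 1.15). In the list of Wnt genes around them, 2 of 20 measured were higher and 2 lower in IR than in Control. Of all genes, 2.16% were higher and 3.41% lower. Ccnd1, the cyclin D1 gene, was the clearest, at 17.1 CPM (15.2 to 19.1) in Control, 38.0 (34.8 to 41.3) in IR and 40.7 (37.1 to 44.5) in IR+CBD. It was read in 164, 195 and 185 cells, with at most 12 UMIs in a cell, and was similar in both irradiated libraries. Of 18 genes listed as candidate CBD targets, 7 were measured in IR against Control, and the adenosine receptor gene Adora2a was the 1 past 1.5-fold, with 79, 27 and 37 UMIs. In IR+CBD against IR, 1 of 5 measured was lower, the receptor gene Gpr18, with 93, 97 and 51 UMIs and a ratio of 0.627 (0.437 to 0.889), and 0 were higher.

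Outside the lists, the genes with the largest differences were partly abundant in few cells. Slc15a2, a peptide transporter gene, held 140 UMIs in 98 Control GMP, 12 in 11 IR GMP and 129 in 73 IR+CBD GMP. Its level was thus 7.83, 0.861 and 11.0 CPM, with a ratio of IR to Control of 0.110 (0.0555 to 0.198) and of IR+CBD to IR of 12.8 (7.09 to 25.4), the highest in that comparison by the rule on the near bound. The same order was seen in the F13a1-positive neighbours, at 5.63, 0.621 and 8.36 CPM, and in erythroid cells, at 4.67, 0.916 and 7.36 CPM. Nalf1, encoding an auxiliary protein of a sodium leak channel, held 3 UMIs in Control, with 469 in IR and 1 in IR+CBD. In IR these UMIs lay in 25 of 423 GMP, at most 78 in a cell.

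Other genes far lower in IR than in Control were spread over more cells and stayed low in IR+CBD. Klk8, a serine protease gene, held 1026 UMIs in 423 Control GMP, 223 in 132 IR GMP and 233 in 147 IR+CBD GMP, or 57.4, 16.0 and 19.9 CPM. Ptms, encoding parathymosin, stood at 35.2, 8.04 and 11.6 CPM, Hdgfl3 at 12.2, 2.22 and 3.85 CPM, Ccser1 at 14.3, 2.30 and 1.88 CPM and Bex1 at 9.34, 1.08 and 1.88 CPM. Wfdc17, a secreted antiprotease-like protein gene of myeloid cells, stood at 50.3, 14.4 and 23.3 CPM, but 116 of its 272 IR+CBD UMIs lay in 1 cell. Gzmb, with 119, 2 and 22 UMIs, and Ccl5, with 251, 51 and 70, held 83 and 111 of their Control UMIs in 1 cell each.

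Beside Slc15a2 and Cxcl10, several of the genes furthest above IR in IR+CBD had few UMIs. Mgl2, a lectin gene of dendritic cells and macrophages, held 55 UMIs in Control, against 51 in IR and 111 in IR+CBD, the last spread over 75 cells. Camk2b, a calcium-dependent kinase gene, held 62, 28 and 72 UMIs, and Ncam1, a cell adhesion gene, 283, 70 and 145. The unnamed genes Gm42047 and ENSMUSG00000121266 held 277, 150 and 279 and 107, 50 and 102 UMIs. For Camk2b, Ncam1 and both unnamed genes IR had the lowest CPM. Of the immunoglobulin genes, Igha held 109 of its 145 IR+CBD UMIs and Igkc 602 of its 1103 in 1 cell each. The genes furthest below IR in IR+CBD were Nalf1, the 4 globin genes and the interferon genes Ifi27l2a, Rtp4, Ifi44, Irf7 and Oas2.

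RNA of other lineages differed between libraries and came from few cells. Of 14 measured erythroid genes, 9 were higher and 0 lower in IR than in Control, and 8 were lower and 0 higher in IR+CBD than in IR. Among all genes measured, 2.16% were higher and 3.41% lower in IR than in Control. In IR+CBD against IR the shares were 0.701% and 1.64%. The 4 globin genes Hba-a1, Hba-a2, Hbb-bs and Hbb-bt held 7268 UMIs in IR GMP, 6948 of them in 7 cells, and 1174 in Control and 320 in IR+CBD. Summed over the erythroid list the level was 430, 987 and 407 CPM. Without cells marked as doublets, 2 of 7 measured erythroid genes were higher in IR than in Control, with a median log2 ratio of 0.15. Basophil and mast cell genes had 4 lower and 0 higher of 7 in IR+CBD against IR. In IR against Control they were split, with 2 of 8 higher, Cd200r3 and Fcer1a, and 2 lower, Gzmb and Prss34. Prss34, a basophil protease gene, held 6671 UMIs in 79 Control GMP, 2659 in 42 IR GMP and 644 in 22 IR+CBD GMP. Cells with at least 10 UMIs of Prss34, Mcpt8 and Fcer1a were 54, 51 and 37, or 9.08%, 12.1% and 8.56% of the GMP. These cells held 12293 of the 12881 Control UMIs of the 3 genes, 7153 of 7788 from IR and 2738 of 3335 from IR+CBD.

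Genes of later neutrophils were read partly in such cells and partly at the level of free RNA, with S100a8 detected in 67.3%, 63.7% and 65.8% of thinned GMP and in 60.7%, 54.8% and 57.4% of thinned erythroid cells. Of 20 measured, Ly6g was higher and Fcnb lower in IR than in Control (Fcnb was higher, at a ratio of 1.59, when the rule was applied after thinning), and of 19, Retnlg was higher and Chil3 lower in IR+CBD than in IR. Against Control, IR+CBD had 8 of 18 higher and 0 lower, where 1.18% of all genes were higher and 2.91% lower. These shares were 2.16% and 3.41% in IR against Control, and 0.701% and 1.64% in IR+CBD against IR. Pglyrp1, an antibacterial granule protein gene, stood at 71.9, 107 and 128 CPM, and Lcn2, an iron-trapping protein gene, at 149, 172 and 224 CPM. Retnlg stood at 76.5, 111 and 224 CPM, with 528 of its 2621 IR+CBD UMIs in 1 cell. The count varied between Mpo bands: among GMP with 50 or more Mpo UMIs, 11 of 16 were higher and 0 lower in IR than in Control, and among those with 10 to 49, 0 were higher and 1 lower of 16. In the same bands 2.16% and 2.57% of all genes were higher, and 1.71% and 3.76% lower. In finer bands there was no steady order with Mpo. The median log2 ratio of the list was -0.39 at 10 to 19, 0.70 at 20 to 49, 1.52 at 50 to 99 and 0.20 at 100 or more Mpo UMIs. With the rule applied after thinning, 15 of 18 were higher and 0 lower in IR than in Control. The 13, 15 and 15 GMP with at least 50 UMIs of Camp, Ngp, Ltf and Retnlg held 11395 of the 12380 Control UMIs of these genes, 10104 of 10789 from IR and 9959 of 10471 from IR+CBD.

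Cxcl10, an interferon-induced chemokine gene, did not follow the interferon list. It stood at 45.5 CPM (42.4 to 48.7) in Control, 34.8 (31.8 to 38.0) in IR and 108 (102 to 114) in IR+CBD, with a ratio of IR+CBD to IR of 3.10 (2.79 to 3.45). It was found in 142, 110 and 157 cells, and the cell with the most held 120, 20 and 66 UMIs. After thinning it was detected in 14.6%, 15.9% and 27.4% of GMP and in 17.3%, 22% and 22.8% of erythroid cells. The share in Control and IR GMP was thus not above that in erythroid cells. In IR+CBD the GMP share was higher, but its interval overlapped that of erythroid cells. The erythroid level was 26.3, 35.0 and 40.9 CPM, below the GMP in Control and IR+CBD. B-lineage cells held 17.27, 15.55 and 27.96 CPM, below the GMP in each library. The part of free RNA in the Cxcl10 values was not tested. The GMP level was 14.5, 18.7 and 53.1 CPM at 10 to 49 Mpo UMIs and 65.6, 40.3 and 134 CPM at 50 or more. The F13a1-positive neighbours had the same order, at 79.5, 56.6 and 140 CPM, and cells on the stem cell side did not, at 12.1, 28.5 and 16.3 CPM.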

How the data were processed

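The authors deposited raw UMI counts per gene and cell, without normalization, as 1 filtered matrix per library, which hold 56980 genes. Per the labels they came from Cell Ranger 4.0 on GRCm39, and per the file headers from Cell Ranger 7.0.1. Whether intronic reads were counted is not given in the sources used here. The members and gene lists were chosen with earlier results of these data known. The 28 lists hold 714 genes.

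UMIs of the GMP were summed per gene and library (Python 3.11.15, numpy 2.4.6, pandas 2.3.3) and divided by the sum of all genes to give CPM. Intervals (scipy 1.17.1) are exact Clopper-Pearson for shares, exact Poisson for CPM and exact conditional binomial for ratios. The ratio intervals were tested on simulated data with independent Poisson counts, the model they rest on. That check could not show how they hold where many UMIs of a gene lie in few cells. Named are the genes of the rule and the markers, the 10 highest and 10 lowest genes of each main comparison by the interval bound nearest to 1, list members past 1.5-fold or abundant, and Atf2 and Lrp6. Some genes that this rule names are not reported here. Doublets were kept, and marked with Scrublet (scanpy 1.11.5) as the highest-scoring 0.8% of cells per 1000 cells for an alternative. Other alternatives changed the thresholds, the scaling (TMM, edgeR 4.0.16 in R 4.3.3), the fold and the count minimum. Promoters came from a RefSeq table on GRCm38.p6, matched by symbol.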

Additional observations from a re-analysis of the deposited data

Results flagged for a closer look

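For 8 genes, GMP and a neighbouring population of the same libraries differed between groups in opposite directions, each past 1.5-fold. The difference was not tested for any of them. Against F13a1-positive cells with at least 10 Mpo UMIs, Gzmb had a ratio of IR to Control of 0.0216 in GMP and 4.09 in the neighbours, on 119 and 2 UMIs in GMP.

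Pf4, the platelet factor 4 gene, had a ratio of IR+CBD to IR of 1.54 in GMP, on 44 and 57 UMIs, but 0.0304 in cells with Mpo and neither Cd34 nor F13a1, and 0.376 in cells with Cd34 and at most 1 Mpo UMI. The remaining genes differ from these last, stem cell side cells. Ly6g, a neutrophil surface protein gene, had a ratio of IR to Control of 1.86 in GMP and 0.0420 there, on 140 and 3 UMIs. For IR+CBD over IR, the ratio was 3.10 in GMP and 0.572 there for Cxcl10, 1.61 and 0.388 for Wfdc17, 0.524 and 21.2 for the neutrophil and macrophage gene Chil3, 0.654 and 2.07 for the basophil protease gene Mcpt8, and 0.623 and 1.68 for Ms4a2, a chain of the IgE receptor.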

How the results depend on the processing

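No paired analysis was possible because each group is 1 library. For the same reason no replicate could be left out. Leaving out GMP with RNA of other lineages, dividing GMP by Mpo level and leaving out the highest cell of each gene were chosen after seeing the data. So was leaving Ifitm1 and Ifitm3 out of the interferon list. The IR to Control ratio of the GMP share, 0.734, was 0.863 with at least 20 Mpo UMIs, 0.430 among GMP with 10 to 49 Mpo UMIs, 1.04 among those with 50 or more, and 1.01 as a share of cells with at least 2 Cd34 UMIs; with the rule applied after thinning it was 0.796. The IR+CBD to IR ratio, 1.03, was 1.30 among GMP with 10 to 49 Mpo UMIs.

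Genes past 1.5-fold numbered 609 for IR against Control and 244 for IR+CBD against IR. They were 179 and 44 with at least 500 UMIs, 2011 and 1295 with at least 20 UMIs, 140 and 53 past 2-fold, and 1840 and 1017 at a fold limit of 5 to 4. Among GMP with 50 or more Mpo UMIs, 384 were past 1.5-fold for IR against Control, of which 55.7% were higher, against 38.8% over all GMP and 50.6% with the rule applied after thinning. For IR+CBD against IR, 29.9% were higher, and 41.8% among GMP with 10 to 49 Mpo UMIs, 44.6% with at least 20 UMIs and 41.3% at a fold limit of 5 to 4. TMM scaling moved all log2 ratios by at most 0.03. The cause of these differences was not tested.

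Of 87 genes followed for IR against Control, 7 changed side of a ratio of 1 under at least 1 alternative. Fcnb had a ratio of 1.22 with at most 1 F13a1 UMI, 1.09 with at least 20 and 1.57 with at least 5 Mpo UMIs, 1.15 without doublets, 1.59 with the rule applied after thinning and 1.66 among GMP with 50 or more Mpo UMIs. In that last group Il1r1 had 1.10, Ccl5 2.08 and Dntt 1.10. After thinning Gzmb had 5.07 and Ccl5 1.36. Pf4 had 1.19 and Hbb-bt 0.963 without RNA of other lineages, 1.09 and 0.963 without doublets, and Pf4 had 1.12 at 10 to 49 Mpo UMIs.

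Of 49 genes followed for IR+CBD against IR, 9 changed side. With at least 4 Cd34 UMIs the ratio was 0.755 for Igkc, 0.951 for Wfdc17 and 0.911 for Retnlg, and with at least 20 Mpo UMIs Wfdc17 had 0.803. Without RNA of other lineages it was 1.36 for Fcer1a, 1.33 for Chil3, 1.08 for Hbb-bt, 1.07 for Mcpt8, 0.954 for Wfdc17, 0.944 for Retnlg and 1.02 for Ms4a2. Without doublets it was 1.06 for Chil3, 1.30 for Hbb-bt, 0.984 for Wfdc17 and 0.878 for Retnlg, and without its highest cell Wfdc17 had 0.995. After thinning it was 0.656 for Igkc, 1.12 for Mcpt8, 0.375 for Ccl5 and 0.678 for Retnlg.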

Other observations

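Of the monocyte genes, Ms4a6c, a membrane protein gene, stood at 86.0 CPM in Control, against 122 in IR and 80.7 in IR+CBD, and Ly86, which encodes MD-1, a partner of a Toll-like receptor homologue, at 19.2, 17.8 and 8.98 CPM. Ccr2, the receptor by which monocytes leave the marrow, stood at 26.8, 23.1 and 17.1 CPM. Of 18 monocyte and dendritic genes measured, Cd74 and Klf4 were past 1.5-fold higher and Ly86 and Ms4a6c past 1.5-fold lower in IR+CBD than in IR, and 127 of the 269 Cd74 UMIs in IR+CBD lay in 1 cell. Over all genes 0.701% were higher and 1.64% lower in that comparison. Against Control, Cd74 was higher and Ccr2, Csf1r, Klf4 and Ly86 lower in IR+CBD, where 1.18% of all genes were higher and 2.91% lower.

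Plek, a platelet and leukocyte signaling protein gene, stood at 131 CPM in Control and was lower in both irradiated libraries, at 84.3 and 88.3 CPM. It was read in 498, 317 and 287 cells. Markers that define megakaryocytes were near the floor, with Gp1bb and Ppbp at 0 in Control and IR. B lineage genes were read in few GMP, with Vpreb3 in 67, 50 and 40 cells and Cd79a in 50, 44 and 38. The cells with at least 10 UMIs of Cd79a and Cd79b numbered 22, 23 and 13. Ly6d, shared by lymphoid and plasmacytoid progenitors, held 338 UMIs in 49 cells, 475 in 45 and 240 in 27.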
